A study of Mus musculus with 24 samples.

Results

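The genes described here are 36 genes of glycolysis and of the response to hypoxia-inducible factors (HIFs). They are followed through the differentiation of mouse embryoid bodies (EBs) with and without calcineurin inhibitors. Glucose transporters and glycolytic enzymes form one sub-list of 18 genes, and the other 18 are listed as HIF targets with other roles. Whether each glycolytic gene is itself a HIF target was not tested. A member was measured by the probe set annotated to its symbol alone, and where several such probe sets existed the one with the highest mean signal was used. This gave 34 members out of 19938 genes named in this way, 16 of them glycolytic and 18 other HIF targets. Gpi1 and Eno1 had no such probe set and are not analysed here.

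EBs are aggregates of differentiating embryonic stem cells, here of the mouse line 46C, and the arrays measured the RNA of whole cultures. Untreated cultures and cultures given FK506 (100 ng/ml) together with cyclosporin A (1 ug/ml) between days 3 and 8 were sampled at days 4, 6, 8 and 12, so that day 12 lay after the end of the drugs. Each of the 8 groups held 3 arrays of biological replicates, 24 together, and this small number sets the precision. All cultures were moved to low-attachment dishes on day 3 and plated on culture dishes on day 7, and from day 8 they were kept in a serum-free medium, so that the day and these steps cannot be told apart. The controls are labelled untreated. Signals are on the log2 scale, and a difference of 1 is a doubling. No detection calls came with them, so a low signal was not shown to lie above background. Levels of different probe sets are compared only where the ranges over the groups are described.

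HIFs are transcription factors of an oxygen-regulated alpha subunit and the partner ARNT. With oxygen present, prolyl hydroxylases of the EGLN family mark the alpha subunit, and the VHL protein delivers it for degradation. With little oxygen it persists and binds promoters and enhancers at a short core sequence. Its targets raise glucose uptake and glycolysis, keep pyruvate from the mitochondria, and act on vessel growth, collagen hydroxylation and growth control. Dense aggregates such as EBs can be poorly supplied with oxygen at their centre, which was not measured here.

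The promoters of 4 members are shown because these genes carried the drug differences described below, Ddit4, Adm and Aldoc as lower and P4ha2 as higher in treated EBs at day 8. Each sequence holds the 250 bases before the annotated start in RefSeq (GRCm38.p6), read 5′ to 3′ along the gene. Capitals mark the HIF core, ACGTG or GCGTG, on either strand (read here as CACGT or CACGC on the opposite strand).

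Ddit4, chr10:59951771-59952020, reverse strand: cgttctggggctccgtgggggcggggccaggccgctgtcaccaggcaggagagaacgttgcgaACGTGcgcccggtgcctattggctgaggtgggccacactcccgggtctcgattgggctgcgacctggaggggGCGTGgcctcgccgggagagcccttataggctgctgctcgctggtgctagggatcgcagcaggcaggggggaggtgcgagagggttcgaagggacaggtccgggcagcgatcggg
Adm, chr7:110627407-110627656, forward strand: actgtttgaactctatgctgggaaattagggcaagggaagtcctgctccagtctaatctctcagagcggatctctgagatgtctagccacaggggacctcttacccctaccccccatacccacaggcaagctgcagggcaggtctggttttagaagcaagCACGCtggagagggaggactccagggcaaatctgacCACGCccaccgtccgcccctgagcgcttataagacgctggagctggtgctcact
Aldoc, chr11:78322823-78323072, forward strand: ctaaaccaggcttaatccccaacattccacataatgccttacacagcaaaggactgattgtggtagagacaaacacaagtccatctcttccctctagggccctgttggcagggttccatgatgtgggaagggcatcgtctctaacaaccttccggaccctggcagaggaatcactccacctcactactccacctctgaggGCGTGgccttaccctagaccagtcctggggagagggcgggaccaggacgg
P4ha2, chr11:54100674-54100923, forward strand: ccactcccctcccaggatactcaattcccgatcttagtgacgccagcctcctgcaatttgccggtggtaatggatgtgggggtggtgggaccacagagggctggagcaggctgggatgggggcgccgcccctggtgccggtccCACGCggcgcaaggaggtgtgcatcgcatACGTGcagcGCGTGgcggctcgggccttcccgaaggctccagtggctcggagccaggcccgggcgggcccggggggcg

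Ddit4 held 1 ACGTG and 1 GCGTG, Adm 2 GCGTG on the opposite strand, Aldoc 1 GCGTG and P4ha2 1 ACGTG and 2 GCGTG, 1 of the latter on the opposite strand. Promoter windows of 300 bases, which reach 50 bases past the start, were in the RefSeq table for 33 of the 36 members. Either core was found in 10 of 17 glycolytic promoters (58.8%) and in 15 of 16 promoters of other HIF targets (93.8%). The same search found it in 8103 of 15614 genes on the arrays that had a window (51.9%). The palindrome CACGTG counts on both strands. A match of 5 letters is a description of the window, and binding was not measured.

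The members differed in how far they moved over the 8 groups. The range of the group means had a median of 0.52 for the glycolytic genes, close to the 0.51 of all genes, and of 1.10 for the other HIF targets. The smallest ranges were those of the lactate dehydrogenase gene Ldha (0.15) and the glucose transporter gene Slc2a1 (0.20), and the largest was that of Vegfa, the vascular growth factor (2.20), followed by the collagen prolyl hydroxylase gene P4ha2 (2.01). The glycolytic genes also had the higher signals, with 10 of 16 above the 95th percentile of all genes, against 3 of 18 other HIF targets. The mean signals of Ldha (13.73) and Slc2a1 (13.71) were near the highest of any gene (14.14). Whether high signals narrowed these ranges was not tested. Untreated day 6 was the highest group for 17 of the 34 members (9 glycolytic, 8 other). Treated day 8 was the lowest for 20 (11 glycolytic, 9 other), and untreated day 4 was the lowest for 7, all of them other HIF targets. The highest and lowest groups were counted for the members only, so no share over all genes stands beside these counts.

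**Figure D1:**
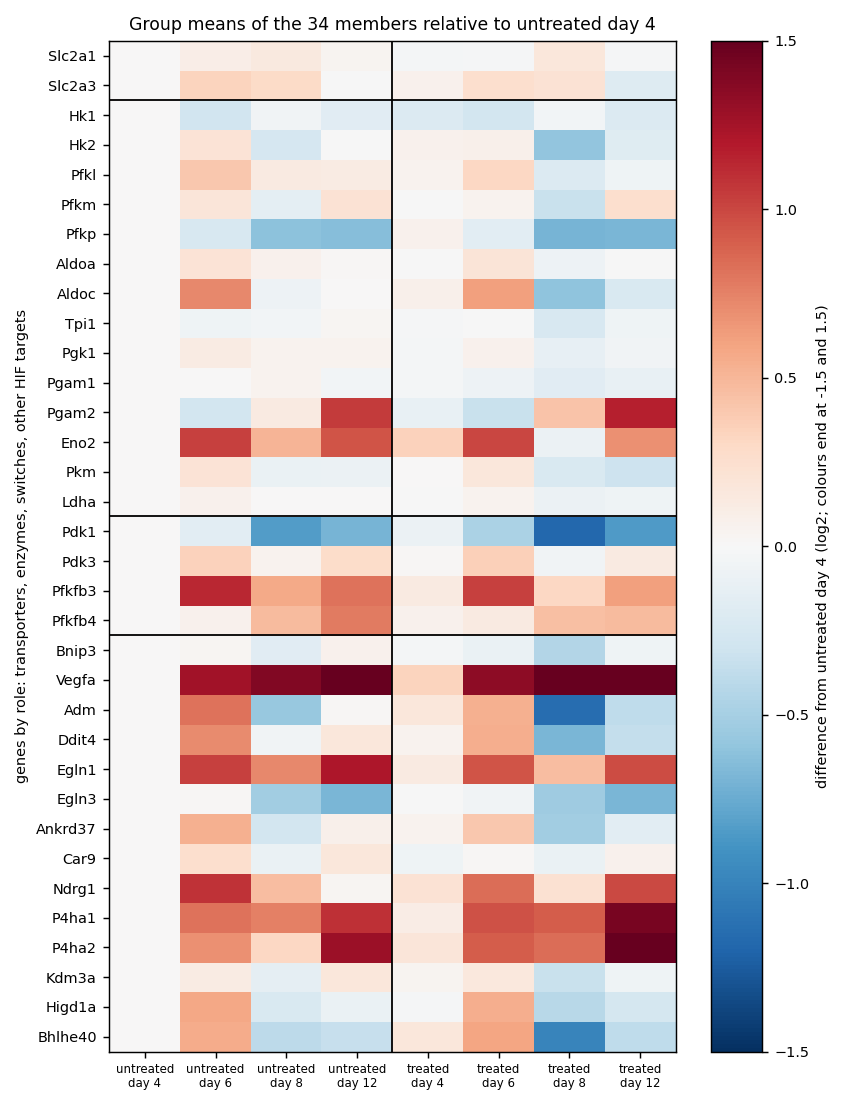
Group means of the 34 members as differences from untreated day 4 on the log2 scale, with 1 row per gene in order of role and 1 column per group (3 arrays each). Many rows are red at day 6 and paler or blue at day 8, and Vegfa, Egln1, P4ha1 and P4ha2 stay above their day 4 level.

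One measurement is uncertain by its annotation. The probe set that the choice gave for hexokinase 1 (Hk1) is named through a single accession that stands on 18 probe sets, and 16 of these also list the ribosomal protein gene Rpl17. The second Hk1 probe set moved differently. From day 4 to day 6 in untreated EBs the first fell by 0.29 and the second rose by 0.35 (adjusted p = 0.000905), and from day 8 to day 12 the second rose by 0.66. Hk1 stays in the counts, and no direction is drawn from it.

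In untreated EBs the course from day 4 to day 6 was a rise, above all among HIF targets outside glycolysis. The limma test called 19 of 34 members higher and 1 lower (Hk1), against 21.1% of all genes higher and 20.9% lower. Of the other HIF targets 13 of 18 rose and 0 fell, with a median difference of 0.57. Of the glycolytic genes 6 of 16 rose, with a median of 0.15, while the median of all genes was -0.04.

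Vegfa measured 9.35, 9.55 and 9.72 at day 4 and 10.84, 10.76 and 10.81 at day 6. No day 6 array reached down to a day 4 array, and the difference was 1.26 (SE 0.10, 2.40-fold, adjusted p = 5.19e-09). Egln1, the oxygen-sensing hydroxylase that HIF itself induces, rose by 1.02 (SE 0.10). The paired collagen hydroxylase genes rose too, P4ha1 by 0.82 and P4ha2 by 0.67. P4ha2 read 8.51, 8.72 and 8.90 at day 4 and 9.44, 9.40 and 9.32 at day 6, again without overlap.

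Ndrg1, a stress-responsive gene of differentiation, rose by 1.07 (adjusted p = 2.01e-06). Adm, the vasodilator peptide adrenomedullin, read 9.11, 9.29 and 9.57 at day 4 and 10.20, 10.14 and 10.04 at day 6, a rise of 0.81. Ddit4, an inhibitor of the growth kinase mTORC1, rose by 0.71. Bhlhe40, a transcriptional repressor, measured 9.97, 10.09 and 10.12 at day 4 and 10.73, 10.68 and 10.45 at day 6, and rose by 0.56 (adjusted p = 0.0351). That call needed nearly every array, with adjusted p of 0.0535 to 0.108 without untreated day 4 replicate 1, 2 or 3 or day 6 replicate 1 or 2. Higd1a, Ankrd37 and Car9 also rose, by 0.58, 0.53 and 0.25. Car9, whose signal was low, was not called without untreated day 4 replicate 1, 2 or 3 or day 6 replicate 1 or 2 (0.065 to 0.172). Bnip3, Egln3 and Kdm3a did not pass the test.

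Among the metabolic switches, Pfkfb3 makes fructose 2,6-bisphosphate, the activator of phosphofructokinase. Its arrays read 9.5, 9.56 and 9.92 at day 4 and 10.80, 10.83 and 10.75 at day 6, a rise of 1.13 (SE 0.12, adjusted p = 3.27e-07). Its relative Pfkfb4 read 7.68, 7.78 and 7.63 and then 7.88, 7.71 and 7.70, which overlapped and did not pass. The pyruvate dehydrogenase kinases hold pyruvate back from the citrate cycle. Pdk3 rose from 10.71, 10.93 and 10.97 to 11.23, 11.30 and 11.13 (0.35, adjusted p = 0.000303), and Pdk1, with 11.68, 11.80 and 11.81 against 11.47, 11.69 and 11.63, did not pass (-0.16, adjusted p = 0.26).

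Of the enzymes, the neuronal-type enolase gene Eno2 rose from 8.41, 8.56 and 8.69 to 9.73, 9.65 and 9.35 (1.02, SE 0.19, adjusted p = 0.000287). The aldolase gene Aldoc rose from 11.10, 11.09 and 11.15 to 11.86, 11.96 and 11.67 (0.72, adjusted p = 0.000991). Both moved without overlap between the days. Pfkl (0.42), the glucose transporter gene Slc2a3 (0.34), Aldoa (0.21) and Pkm (0.21) rose by less. Pkm's call ended without untreated day 4 replicate 1 or 3 or day 6 replicate 1 or 2 (adjusted p 0.0601 to 0.154). Over all alternatives its adjusted p ranged from 0.0133 to 0.38. The group mean of its second probe set went only from 12.497 to 12.580.

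**Figure D2:**
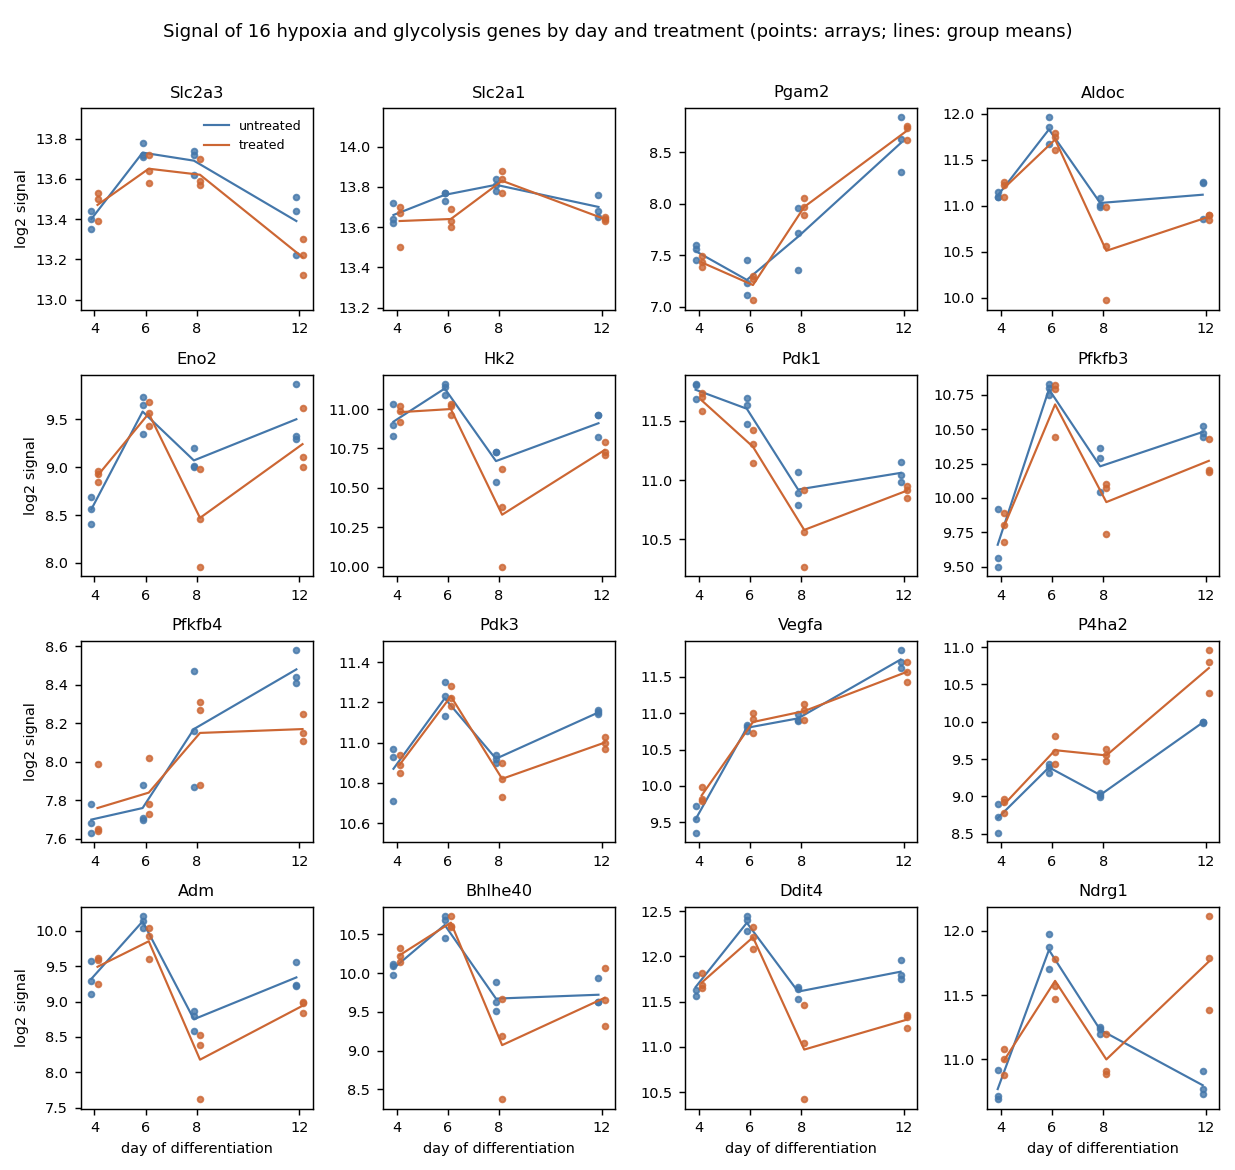
Log2 signal of 16 members against the day of differentiation, with 1 point per array and lines through the means of 3 arrays, untreated in blue and treated in orange. Adm, Aldoc and Ddit4 peak at day 6 and drop to day 8, with the treated day 8 arrays lower and more spread, while Ndrg1 separates at day 12.

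From day 6 to day 8 most of the called members were lower. The test called 20 members lower and 3 higher, against 18.3% and 17.8% of all genes. The falls covered 14 of 18 other HIF targets (median -0.46) and 6 of 16 glycolytic genes (median -0.11), beside a median of 0.04 over all genes. Both arms of the peak were called for 15 members, which passed as a rise to day 6 and again as a fall to day 8, 11 of them other HIF targets and 4 glycolytic. The share of all genes with both calls was not counted. Both contrasts use the same day 6 arrays, so the calls are not independent. Cell type markers moved over the same days. Their summed linear signal (log2 values turned back, in units of 1000, mean of 3 arrays) went from 46.2 to 31.5 for 11 pluripotent and epiblast markers, from 3.26 to 9.48 for 7 mesenchyme markers and from 0.977 to 6.84 for 7 blood markers, all 7 of which were called higher. In whole cultures fewer cells of a type and less RNA per cell cannot be told apart, and the part of these markers in the course was not tested.

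Adm fell most, by 1.38 (SE 0.17, 2.61-fold), to 8.58, 8.86 and 8.79 at day 8. All 3 of these arrays lay below every array of day 4. Bhlhe40 fell by 0.95 to 9.51, 9.62 and 9.88, Higd1a by 0.81, Ankrd37 by 0.80 and Ddit4 by 0.76. Aldoc fell by 0.80 to 11.01, 11.08 and 10.99, close to its day 4 arrays. Pdk1 fell by 0.68 to 10.89, 11.07 and 10.79, Ndrg1 by 0.62, Pfkfb3 by 0.56 to 10.04, 10.29 and 10.36, Egln3 by 0.54 and Eno2 by 0.51 to 9.0, 9.01 and 9.20. P4ha2 fell by 0.37 to 9.04, 8.99 and 9.02. The calls of Eno2 (0.104 to 0.13) and Egln1 (0.0526 to 0.076) ended without untreated day 6 replicate 1 or 2 or without day 8 replicate 1, that of Eno2 also without day 8 replicate 2, and that of P4ha2 without day 6 replicate 1 (0.0509).

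Vegfa did not take part, with 10.91, 10.89 and 10.99 at day 8, all above day 6, and a difference of 0.13 that did not pass (adjusted p = 0.298). The 3 members called higher were Pgam2, the muscle phosphoglycerate mutase gene (0.42), Pfkfb4 (0.40) and Hk1 (0.24). The arrays of Pgam2 overlapped, with 7.45, 7.23 and 7.11 at day 6 and 7.96, 7.36 and 7.72 at day 8. This count rested on single arrays. It was 1 without untreated day 6 replicate 2 and 0 without untreated day 6 replicate 3 or without untreated day 8 replicate 1.

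Between day 8 and day 12 the untreated EBs gained signal again in part of the list. The test called 11 members higher and 2 lower, against 18.8% and 19.9% of all genes, and 9 of the 11 were HIF targets outside glycolysis. P4ha2 rose by 0.97 to 10, 9.98 and 10 (adjusted p = 5.94e-07). Vegfa rose by 0.80 to 11.63, 11.87 and 11.71, Adm by 0.59 to 9.24, 9.22 and 9.56, and Egln1 by 0.49. All of these stood clear of their day 8 arrays, and the call of Adm ended without untreated day 12 replicate 3 (0.0583).

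Pgam2 rose by 0.91 to 8.31, 8.84 and 8.63 and Pfkm, the muscle phosphofructokinase gene, by 0.37, and they were the 2 glycolytic genes called. Over the same days the summed signal of 8 cardiac and skeletal muscle markers went from 5.43 to 19.5 (units of 1000), with 6 called higher and 1 lower. That of the pluripotent and epiblast markers went from 31.5 to 11.5 and that of 9 neural progenitor markers from 6.47 to 20.5, and the part of these markers in the rises was not tested. Ndrg1 and Slc2a3 fell, by 0.43 and 0.30. The members that passed as a rise, a fall and a rise in turn were Pdk3, Adm, Egln1, Ankrd37, Car9 and P4ha2. How many of all genes passed in this way was not counted. Car9 did so at a low signal, with group means from 6.31 to 6.66 that were not shown to lie above background. Without untreated day 8 replicate 1 the list lost Egln1, whose fall then had an adjusted p of 0.0714, and Ankrd37 (0.0561) and Car9 (0.108), whose rises to day 12 ended. Those rises also ended without day 8 replicate 3 or day 12 replicate 1, that of Ankrd37 without day 12 replicate 3 (0.171) and that of Car9 without day 12 replicate 2 (0.198). Against day 4, day 12 was higher for 10 members and lower for 3, where 27.0% of all genes were higher and 30.2% lower, so that the share of higher members was near the background. Vegfa stood 2.20 above day 4 (4.59-fold), P4ha2 1.28, Egln1 1.2 and P4ha1 1.10, while Pdk1 (-0.70), Egln3 (-0.69) and the platelet phosphofructokinase gene Pfkp (-0.64) were lower.

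In treated EBs members also rose to day 6 and fell to day 8. From day 4 to day 6 the test called 14 members higher and 1 lower, beside 19.1% and 25.1% of all genes. Vegfa rose by 1.02 from 9.99, 9.82 and 9.79 to 11, 10.73 and 10.92, Pfkfb3 by 0.89 and P4ha1 by 0.84. Pdk1 fell by 0.39 (adjusted p = 0.0103), from 11.58, 11.70 and 11.73 to 11.14, 11.42 and 11.30. Its call was lost without treated day 6 replicate 1 (0.0581).

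From day 6 to day 8 under the drugs 23 members were called lower and 3 higher, beside 24.7% and 16.8% of all genes. Glycolytic genes made up 10 of the 23. Adm fell by 1.68 (SE 0.17), from 9.93, 10.04 and 9.60 to 7.62, 8.53 and 8.38. Bhlhe40 fell by 1.57, from 10.73, 10.59 and 10.61 to 8.37, 9.66 and 9.19. Both genes had their lowest array in replicate 1 of day 8, and neither overlapped between the days. Ddit4 fell by 1.23, Aldoc by 1.21, Eno2 by 1.09, Higd1a by 0.97 and Ankrd37 by 0.93. Pgam2 (0.76), Hk1 (0.23) and Slc2a1 (0.19) were called higher, a count that was 1 without treated day 6 replicate 2 or treated day 8 replicate 1, 2 without day 8 replicate 3 and 4 without day 6 replicate 1.

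After the drugs, from day 8 to day 12, 17 members were called higher and 2 lower, beside 16.5% and 16.7% of all genes. P4ha2 rose by 1.16, from 9.55, 9.48 and 9.63 to 10.96, 10.39 and 10.80. Eno2 rose by 0.77, Adm by 0.76, Ndrg1 by 0.76 and Pgam2 by 0.73. Slc2a3 fell by 0.41, from 13.57, 13.70 and 13.59 to 13.22, 13.30 and 13.12, and Slc2a1 by 0.19, from 13.88, 13.84 and 13.77 to 13.64, 13.65 and 13.63. The count of higher members was 10 without treated day 8 replicate 1 and 11 without treated day 12 replicate 1, and that of lower members 1 without day 8 replicate 1 or day 12 replicate 3. Against day 4, treated day 12 was higher for 9 members and lower for 8, both near the background of 24.6% and 30.4% of all genes. Whether the courses of the arms differ is tested further on, as the change of the drug effect between days.

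**Figure D3:**
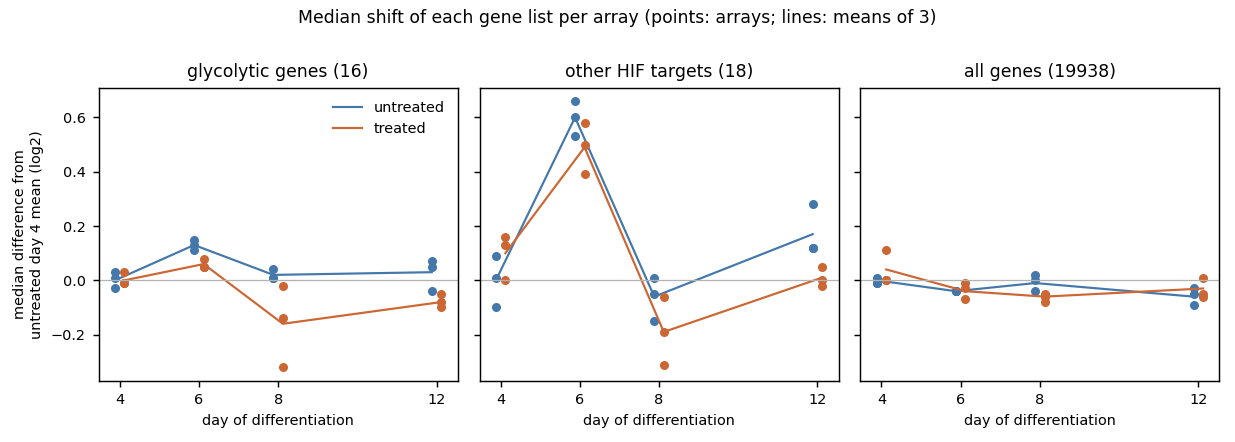
Median difference of the 16 glycolytic genes, the 18 other HIF targets and all 19938 genes from the mean of untreated day 4, per array (points) and as the mean of 3 arrays (lines), on the log2 scale. The other HIF targets reach 0.60 in untreated and 0.49 in treated EBs at day 6, and the treated day 8 arrays of the glycolytic genes spread from -0.32 to -0.02.

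The drug comparison sets treated against untreated EBs of the same day, and calcineurin activity was not measured. At day 4, 1 day after the drugs were added, no member passed (0 of 34), and over all genes 0.00502% were called higher and 0.0% lower. With p unadjusted, 2 members were under 0.05. Vegfa was the nearest, with 9.99, 9.82 and 9.79 in treated and 9.35, 9.55 and 9.72 in untreated EBs, which did not overlap (0.33, adjusted p = 0.72).

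At day 6 again 0 of 34 passed, beside 1.26% of all genes higher and 0.577% lower, and 2 members were under 0.05 unadjusted. Pdk1 differed most, with 11.14, 11.42 and 11.30 in treated and 11.47, 11.69 and 11.63 in untreated EBs. The arrays did not overlap, and the difference was -0.31 (adjusted p = 0.22). With the replicate number as a block within the day, its adjusted p was 0.045. The labels do not give this pairing, which was read from correlations of the same arrays.

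At day 8, the last day of the drugs, 5 glycolytic enzyme genes, Ddit4 and Adm were lower in treated EBs and P4ha2 was higher. The test called 7 members lower, 5 of them glycolytic enzymes, and 1 higher, beside 4.08% of all genes lower and 4.86% higher. The median difference was -0.16 for glycolytic genes and -0.22 for other HIF targets, beside -0.04 for all genes. A difference below 0 was found for 27 of 34 members and for 62.6% of all genes. All treated arrays lay below all untreated ones for 11 members, where the share over all genes was 14.2%, and above them for 2 members (9.37% of all genes).

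Ddit4 read 10.42, 11.46 and 11.04 in treated EBs against 11.53, 11.66 and 11.64. The groups did not overlap, and the difference was -0.64 (SE 0.15, 1.55-fold lower, adjusted p = 0.0116). Adm read 7.62, 8.53 and 8.38 against 8.58, 8.86 and 8.79 (-0.57, SE 0.17, adjusted p = 0.0441). Its treated arrays lay just below the lowest untreated one in replicate 2 and far below in replicate 1.

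Among the enzymes, Aldoc read 9.97, 10.99 and 10.56 against 11.01, 11.08 and 10.99 (-0.52, SE 0.16, adjusted p = 0.0407). Pfkl, the liver-type phosphofructokinase gene, was lower by 0.34 (0.0166) and the first enzyme of the pathway, hexokinase 2 (Hk2), by 0.33 (0.0442). Arrays of Hk2 overlapped, with 10, 10.62 and 10.38 against 10.54, 10.73 and 10.73. Pgam1, the general phosphoglycerate mutase gene, was lower by 0.23 (0.0139) and the triose phosphate isomerase gene Tpi1 by 0.20 (0.0436), the latter with 0.0597 under the replicate block within the day.

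The single rise was that of P4ha2, which read 9.55, 9.48 and 9.63 in treated and 9.04, 8.99 and 9.02 in untreated EBs (0.54, SE 0.11, 1.45-fold, adjusted p = 0.00609). The arrays of each group lay close together and did not overlap. P4ha2 was called in 15 of its 16 alternatives, the exception being a fit of the day 8 arrays alone (0.076).

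Eno2, Bhlhe40 and Pdk1 were near the threshold. Eno2 read 7.96, 8.98 and 8.46 against 9.0, 9.01 and 9.20, without overlap (-0.60, adjusted p = 0.0551). Bhlhe40 read 8.37, 9.66 and 9.19 against 9.51, 9.62 and 9.88, and its groups overlapped (-0.60, 0.0757). Pdk1 read 10.27, 10.92 and 10.56 against 10.89, 11.07 and 10.79 (-0.34, 0.0691). Under the replicate block within the day all 3 passed, with 0.0352, 0.0285 and 0.0109. That pairing is uncertain, since replicate 3 of day 8 correlated better with another number (0.126 against 0.107). Pfkfb3 (9.74, 10.10 and 10.07 against 10.04, 10.29 and 10.36), Pdk3 (10.73, 10.82 and 10.90 against 10.90, 10.92 and 10.94) and Pfkfb4 (8.31, 7.88 and 8.27 against 8.47, 7.87 and 8.16) did not pass.

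**Figure D4:**
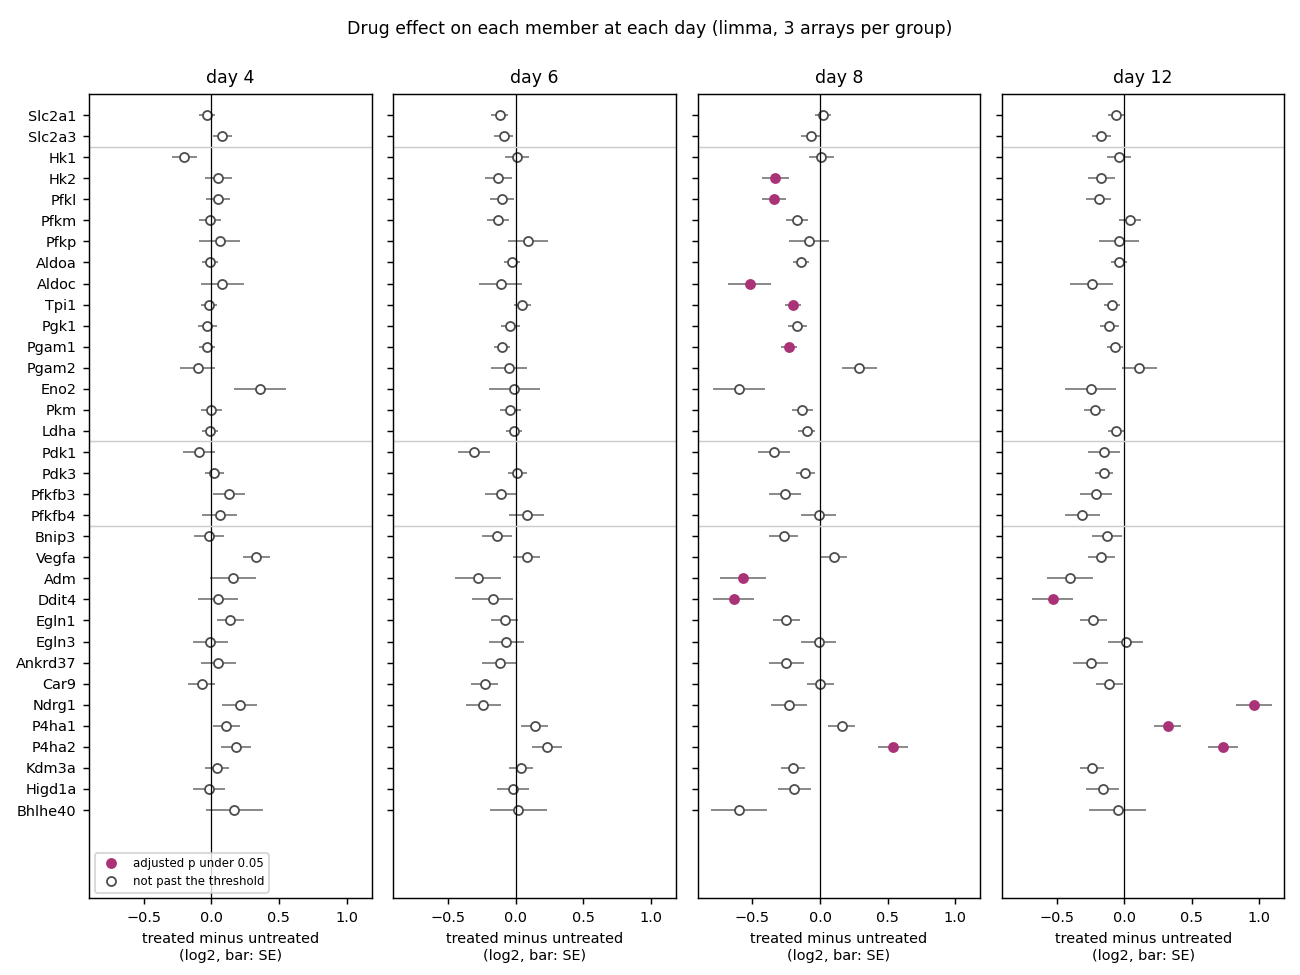
Treated minus untreated log2 signal of each member at days 4, 6, 8 and 12 (points, with the SE as bars, 3 arrays per group), where filled points passed an adjusted p of 0.05. The filled points lie below 0 at day 8 except for P4ha2, and at day 12 Ndrg1, P4ha1 and P4ha2 lie above 0 and Ddit4 below.

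The treated day 8 arrays stood apart from one another in the members. The ranks that follow were counted for the members only, and no share over all genes stands beside them. Replicate 1 was the lowest of the 3 in 29 of 34 members and replicate 2 the highest in 27. Replicate 1 lay below all untreated day 8 arrays in 27 members, replicate 3 in 24 and replicate 2 in 11. The lower count therefore moved with the arrays used. It was 0 without treated replicate 1 or untreated replicate 2 (adjusted p of the 7 then 0.0688 to 0.374), 2 without treated replicate 3 or untreated replicate 3, and 16 without treated replicate 2. In a fit of the day 8 arrays alone it was 0, as it was for all 19938 genes, of which 3969 had an unadjusted p under 0.05. With the arrays centred on their medians it was 3, and with array weights 16. The sizes moved too. Without treated replicate 1 the difference of Ddit4 was -0.36, of Adm -0.29, of Aldoc -0.25, of Pfkl -0.21, of Hk2 -0.17, and of Pgam1 and Tpi1 -0.16 each. Without treated replicate 2 they lay between -0.27 (Tpi1) and -0.88 (Ddit4). All of these values were below 0.

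The cell type markers moved in the same arrays. The summed linear signal of 11 pluripotent and epiblast markers (units of 1000) was 11.6, 32.6 and 17.8 in the treated arrays and 27.8, 36.4 and 30.3 in the untreated ones, with 5 of the 11 genes called lower and 0 higher. For 7 mesenchyme markers it was 27.7, 11.3 and 22.4 against 12.7, 7.30 and 8.44, with 6 called higher. For 6 endothelial markers it was 5.20, 2.04 and 4.30 against 2.48, 1.11 and 1.92, with 5 called higher. For 8 endoderm markers it was 19.1, 15.9 and 16.4 against 15.4, 9.82 and 11.4, which did not overlap, with 2 called higher. The neuron sum of 7 markers was 2.55, 4.55 and 3.07 against 4.52, 6.41 and 5.07, which overlapped, with 2 called lower. Of 9 neural progenitor markers 5 were called lower and 0 higher. Treated replicate 1 was thus lowest for pluripotent markers and highest for mesenchyme and endothelial markers, and replicate 2 the reverse. Sums of other markers varied too. For 7 proliferation markers the sum was 28.7, 31.8 and 29.3 in treated arrays against 30.3, 32.7 and 31.5. For 7 stress and dying cell markers it was 8.55, 11.4 and 10.1 against 10.6, 10.8 and 10.5. Both sums overlapped between the groups, and both were lowest in treated replicate 1. The part of any of these markers in the day 8 differences was not tested.

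At day 12, 4 days after the drugs ended, P4ha2 and Ddit4 passed again, together with Ndrg1 and P4ha1. The test called 3 members higher and 1 lower, beside 7.49% and 10.4% of all genes. The share of higher members was thus near the background and that of lower members below it. All 4 called members were HIF targets outside glycolysis. Of the 16 glycolytic genes 0 passed and 3 were under 0.05 unadjusted. A difference below 0 was found for 28 of 34 members and for 46.2% of all genes, with medians of -0.08 for glycolytic genes, -0.15 for other HIF targets and 0.02 for all genes. All treated arrays lay below all untreated ones for 16 members (17.1% of all genes) and above them for 3 (15.4%).

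Ndrg1 read 12.11, 11.38 and 11.79 in treated and 10.73, 10.77 and 10.91 in untreated EBs. The groups were far apart, and the difference was 0.96 (SE 0.13, 1.94-fold, adjusted p = 2.57e-05). P4ha2 read 10.96, 10.39 and 10.80 against 10, 9.98 and 10 (0.73, SE 0.11, 1.65-fold, adjusted p = 0.000124). Both calls held in all 16 alternatives run for them.

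P4ha1 read 12.22, 11.79 and 12.04 against 11.66, 11.71 and 11.74, which did not overlap (0.32, SE 0.10, adjusted p = 0.0274). Its call ended without untreated replicate 1 (0.084) or 2 (0.0679), without treated replicate 1 (0.183) or 3 (0.0936) and with the day 12 arrays alone (0.0869), in a range from 0.00294 to 0.183. Ddit4 stayed lower, with 11.35, 11.33 and 11.21 against 11.75, 11.79 and 11.96 (-0.53, SE 0.15, adjusted p = 0.0165). Without untreated replicate 3 (0.072) or treated replicate 3 (0.0773) it did not pass.

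The best-known vascular targets did not pass. Vegfa read 11.71, 11.57 and 11.43 in treated and 11.63, 11.87 and 11.71 in untreated EBs, which overlapped. Adm read 8.98, 8.99 and 8.84 against 9.24, 9.22 and 9.56, without overlap (-0.40, adjusted p = 0.126). Aldoc read 10.85, 10.90 and 10.90 against 10.86, 11.26 and 11.25, and Eno2 9.62, 9.11 and 9.0 against 9.29, 9.87 and 9.32, with overlapping groups in both. Pkm (-0.22), Pfkfb4 (-0.31) and Kdm3a (-0.24), a histone demethylase gene, were called with the replicate block within the day (adjusted p = 0.0349, 0.0174 and 0.0494) and not without it (0.0615, 0.107 and 0.0614). That pairing is uncertain, since replicates 1 and 3 of day 12 correlated better with another number (0.264).

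Markers differed at day 12 as well. The summed signal of the mesenchyme markers was 50.8, 39.0 and 45.9 (units of 1000) in treated and 29.1, 23.3 and 27.0 in untreated EBs, with 4 of 7 called higher. The endoderm sum was 18.4, 17.1 and 18.1 against 8.24, 10.9 and 9.44, with 6 of 8 called higher and 1 lower, and all 7 neuron markers were called lower. Treated replicate 1 had both the highest mesenchyme sum and the highest Ndrg1, P4ha1 and P4ha2, and replicate 2 the lowest of all 4. The sum of 7 proliferation markers was 23.9, 27.7 and 24.5 in treated EBs against 28.4, 28.4 and 28.9, without overlap. That of 7 stress and dying cell markers was 9.53, 11.8 and 10.4 against 11.3, 12.2 and 10.9, which overlapped. The part of these cell types and markers in the day 12 differences was not tested.

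Whether the drug effect itself changed between days was tested as an interaction. Between days 4 and 6 the limma test called 0 of 34 members, beside 0.0752% of all genes higher and 0.0201% lower, and 1 had an unadjusted p under 0.05. Between days 6 and 8 it again called 0, beside 0.221% and 0.181%, and 4 were under 0.05 unadjusted. From day 8 to day 12 the test called 1 member, Ndrg1, beside 2.63% of all genes higher and 2.57% lower. Its treated minus untreated difference went from -0.23 at day 8, where the arrays read 10.91, 11.20 and 10.89 against 11.20, 11.25 and 11.24, to 0.96 at day 12, a change of 1.19 (SE 0.18, adjusted p = 0.000943). Without treated day 8 replicate 2 this contrast called 2 members, and that between days 6 and 8 called 6 lower. With all arrays, the drug effects on glycolytic genes at day 8 were thus not shown to differ from the drug effects at day 6 or day 12.

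Relatives within the list did not always move together. In treated against untreated EBs at day 8, P4ha2 passed and P4ha1 did not (0.54 and 0.16), Hk2 passed while Hk1 is uncertain, and Pfkl passed (-0.34) where Pfkm (-0.17) and Pfkp (-0.08) did not. Aldoc passed (-0.52) and Aldoa did not (-0.14), and Pgam1 was lower (-0.23) while Pgam2, with 7.97, 7.89 and 8.06 against 7.96, 7.36 and 7.72, stood at 0.29 and did not pass. In untreated EBs from day 4 to day 6 Egln1 rose by 1.02 and Egln3 stood at 0.02, and from day 6 to day 8 both fell. Differences between relatives were not tested. Near-identical copies of glycolytic genes exist in the mouse genome, so the signals of Aldoa, Pgk1, Pgam1, Tpi1, Pkm and Ldha may hold RNA of copies.

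The HIF subunits and their regulators changed in both directions. Of 15 genes of the HIF machinery 4 rose and 1 fell from day 4 to day 6 in untreated EBs, where 21.1% of all genes rose and 20.9% fell, so that the rises were near the background. Hif1a, the main alpha subunit, was at 11.72 ± 0.05 and 11.67 ± 0.05 (SD, n = 3) on those days and did not pass (-0.05, adjusted p = 0.667). Epas1, which encodes HIF-2 alpha, fell by 1.63 (8.9e-06), Hif3a rose by 0.89 (9.64e-05) and Cited2, a HIF-induced competitor for the coactivator, by 0.94 (2.86e-07). Vhl rose by 0.33 and Arnt did not pass.

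From day 6 to day 8, 3 of the 15 rose and 3 fell in untreated EBs, near the 17.8% and 18.3% of all genes, among them Epas1 (1.23), Hif3a (-0.73) and Arnt (-0.20). Under the drugs at day 8 Epas1 was higher, with 10.90, 9.88 and 10.24 against 9.85, 8.73 and 9.27 (1.06, SE 0.22, adjusted p = 0.00575), and its highest array in each arm was replicate 1. Hif3a was lower by 0.53 (0.0308) and Arnt2, the neural partner subunit, by 0.46 (0.0131). Thus 1 of 15 was called higher and 2 lower, beside 4.86% and 4.08% of all genes. Epas1 is also a gene of endothelial cells, whose markers were higher in the same arrays. The part of these cells in the Epas1 difference was not tested. At day 12 Hif3a was higher by 0.48 (0.0286) and Arnt2 lower by 0.72 (0.000117). The drug effect on Hif3a changed by 1.02 (SE 0.21, adjusted p = 0.0081) from day 8 to day 12. Hif1a, Arnt and Vhl did not pass in any of the 4 drug comparisons.

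A further list held 27 genes reported as hypoxia targets. In untreated EBs 15 rose and 2 fell to day 6 (all genes 21.1% and 20.9%), 0 rose and 11 fell to day 8 (17.8% and 18.3%), and 12 rose and 3 fell to day 12 (18.8% and 19.9%). Some had other courses, such as the lysyl oxidase gene Lox, with group means of 7.07, 7.05, 6.62 and 9.07 over days 4, 6, 8 and 12. The largest rises to day 6 were Flt1, a VEGF receptor (1.46), the respiratory chain relative Ndufa4l2 (1.26) and the glycogen branching enzyme gene Gbe1 (1.04). Ier3 (-1.26), Ndufa4l2 (-1.17) and Gbe1 (-0.87) fell most to day 8. In treated against untreated EBs 1 was higher and 2 lower at day 8 (Plod2 0.25, Car12 -0.97, Ier3 -0.64), beside 4.86% and 4.08% of all genes.

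At day 12, 3 of the 27 were higher and 3 lower in treated EBs, near the background of 7.49% and 10.4% of all genes. Lox, whose product crosslinks collagen, read 11.36, 9.95 and 11.22 against 9.57, 8.58 and 9.07, without overlap (1.77, SE 0.25, adjusted p = 4.49e-05). The collagen lysyl hydroxylase gene Plod1 was higher by 0.82 (0.00012) and Angptl4 by 0.79 (0.000646). Plod2, of the same family as Plod1, did not pass (-0.01). Mesenchyme markers were higher in the same arrays, as given above, and their part in these differences was not tested.

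Counts in other branches of energy metabolism are read against all genes, of which 17.8% rose and 18.3% fell from day 6 to day 8 in untreated EBs. Of 24 respiratory chain genes 1 rose and 13 fell over these days, with Cox7a1 (-1.21), Ndufa1 (-0.60) and Cox4i2 (0.50) the largest, and 1 rose and 19 fell in treated EBs (all genes 16.8% and 24.7%). Of 17 citrate cycle genes 0 rose and 5 fell when untreated, of 11 pyruvate dehydrogenase genes 0 rose and 5 fell, with the kinase gene Pdk4 at -1.23, and of 7 pentose phosphate genes 0 rose and 3 fell. Of 18 other glycolysis and gluconeogenesis genes 4 rose and 3 fell, which is near the background. Differences between these lists were not tested. In treated against untreated EBs at day 8, 0 of the 24, 17, 11 and 7 genes passed and 1 of the 18 was lower, Ldhb, the second lactate dehydrogenase gene (-0.67, adjusted p = 0.0253, with overlapping arrays). Of all genes 4.86% were higher and 4.08% lower in that comparison. At day 12, 3 respiratory chain, 2 citrate cycle, 2 pyruvate dehydrogenase and 1 pentose phosphate gene were lower and 0 higher, and 1 of the 18 was lower, Bpgm (-0.37), beside 10.4% of all genes lower.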

How the data were processed

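The deposited table holds log2 values of 35556 probe sets on 24 Affymetrix Mouse Gene ST arrays, made by the authors with RMA in Affymetrix Expression Console, per the submitters' processing notes. The log2 scale was read from the range of the values. Array medians lay between 7.80 and 7.88, and no pair of arrays was identical. Software versions, and a genome build for the probe sets, were not given in the sources used here. In the platform annotation 21789 probe sets had 1 symbol, 1621 several and 12146 none listed. Of the 21789, 21698 matched the GRCm38.p6 gene table by Entrez identifier. For the 999 genes with several probe sets the highest-mean one was used.

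Differences were fitted with limma 3.58.1 in R 4.3.3 (lmFit on 8 group means with all 24 arrays in 1 fit and 16 residual degrees of freedom, then eBayes), with Benjamini-Hochberg adjustment over 19938 genes within each contrast at 0.05. The median SE of a drug difference was 0.092. The fit was tested on simulated data. Python 3.11.15 was used for tables and plots.

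Members and lists were chosen with earlier results of these data known. Named genes were, per contrast, up to 10 called members with the largest change and no overlap of arrays, and up to 3 against the majority. Values of every array were given for the 4 members per role with the widest range of group means, and relatives were described together. Of the other lists, up to 3 called genes per contrast were named, and Hif1a, Epas1, Arnt and Vhl always. The labels name independent experiments but do not say whether numbers pair the arms. Deviations of same-numbered arrays from their group means correlated above 0.1 for every number at day 6 (0.297, 0.138, 0.21), day 8 (0.479, 0.553, 0.107) and day 12 (0.118, 0.341, 0.253), and not at day 4 (-0.014, 0.191, -0.053). Days 6, 8 and 12 were therefore treated as possibly paired. The replicate block was an alternative to the main fit, which had none. Replicate 3 at day 8 (0.126) and replicates 1 and 3 at day 12 (0.264) correlated better with another number.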

Additional observations from a re-analysis of the deposited data

Results flagged for a closer look

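The drug effect on 2 genes differed between days by the test of the difference itself. For Ndrg1 the treated minus untreated difference changed by 1.19 from day 8 to day 12 (limma, adjusted p = 0.000943), from -0.23 to 0.96, with all 3 treated arrays of day 12 above all untreated ones. The call held in all 22 alternatives, with adjusted p from 9.61e-06 to 0.0257. For Hif3a, an alpha subunit relative from the HIF machinery list, it changed by 1.02 over the same days (adjusted p = 0.0081), from -0.53 to 0.48. Groups of 3 arrays were not tested for single deviating arrays.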

How the results depend on the processing

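The settings tried were all probe sets of a gene averaged, a level filter at the 40th percentile, quantile normalization, centring on array medians, a robust prior with an intensity trend, array weights (whose estimation stopped before it converged), the replicate block over all arrays or within a day, a fit of the compared groups only, leaving out single arrays and, added after seeing the data, the lowest-mean probe set. Counts of called members outside 1.5 times the main count were as follows. Lower at day 8 in treated EBs (7): 16 with array weights, 3 with centring, 0 with the compared groups alone, and 0 to 16 with an array left out. Higher at day 8 (1): 2 with array weights, 0 with the compared groups, 1 to 2 with an array left out. Lower at day 12 (1): 3 above the 40th percentile, 7 with array weights, 4 with the trend, 3 with the compared groups, 2 with quantile normalization, 3 with the replicate block over all arrays, 4 with the replicate block within day, and 0 to 2 with an array left out. Lower at day 6 (0): 1 with array weights and 1 with the replicate block within day. Untreated, lower from day 4 to day 6 (1): 4 with array weights, 2 with centring, 2 with the compared groups, 0 with either other probe set rule, 0 to 2 with an array left out. Untreated, higher from day 6 to day 8 (3): 0 to 3 with an array left out. With centring, untreated lower counts became 4 between days 8 and 12 (2) and 8 between days 4 and 12 (3). Treated, lower from day 4 to day 6 (1): 3 with array weights, 0 to 1 with an array left out. Treated, higher from day 6 to day 8 (3): 1 with the compared groups, 1 to 4 with an array left out. Treated, day 8 to day 12: higher (17) 10 with centring, 8 with the compared groups, 10 to 20 with an array left out, and lower (2) 1 with the compared groups, 1 to 2 with an array left out. Treated, lower from day 4 to day 12 (8): 14 with centring. Change of the drug effect: lower between days 4 and 6 (0) 1 with array weights, lower between days 6 and 8 (0) 1 with array weights and 0 to 6 with an array left out, and higher from day 8 to day 12 (1) 1 to 2 with an array left out. The all-gene median went under centring from -0.06 to -0.21 for untreated day 12 against day 4. The replicate block within a day changed no drug call other than those the text gives with it at days 6, 8 and 12. Over all arrays the block added calls between days for Pfkp (0.0246), Hk2 (0.029 and 0.0281), Pfkfb4 (0.0227 and 0.0214), Slc2a3 (0.0435) and Aldoc (0.0448), as adjusted p, and ended none. The cause of these shifts was not tested.

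Among differences that passed in the main fit or in the setting compared with it, Hk1 alone changed direction. Differences that passed in neither could change sign with the probe set. Pkm is an example, from day 4 to day 6 in treated EBs. Its chosen probe set went from 12.682 to 12.851 and its second from 12.536 to 12.443. The values of Hk1 follow. With the mean of the Hk1 probe sets its differences were 0.03 (untreated day 4 to 6), 0.27 (day 8 to 12), 0.33 (day 4 to 12), 0.34 (treated day 8 to 12) and 0.31 (treated day 4 to 12). With the lowest-mean probe set they were -0.25 (treated against untreated at day 8), 0.35, -0.18, 0.66 and 0.82 (untreated day 4 to 6, 6 to 8, 8 to 12 and 4 to 12), and -0.18, 0.85 and 0.64 (treated day 6 to 8, 8 to 12 and 4 to 12). Without detection calls, it was not tested which low signals lay above background.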
